A study of Homo sapiens with 4 samples.

Results

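Glycosyltransferases of the secretory pathway build the sugar chains of mucins, cell surface proteins and glycolipids, and 87 of their genes were compared between A549 cells and a line derived from them under transforming growth factor beta (TGF-β). The members were all protein-coding rows of the count files whose gene symbol belongs to the GALNT, GCNT, B3GNT, B3GALT, B4GALT, MGAT, FUT, ST3GAL, ST6GAL, ST6GALNAC or ST8SIA families, together with A4GALT and A4GNT. They are 87 of 57820 listed genes and 87 of 19263 protein-coding rows. A549 is an established human lung adenocarcinoma cell line of epithelial morphology. Parental A549 cells gave 2 libraries. The line named TD gave another 2 libraries and is A549 under continued TGF-β (2 ng/ml, with a new dose after every 3 days), described as mesenchymal-like. Both lines share the same A549 background and were kept in the same serum-containing medium with gentamycin. The labels do not say whether TD is 1 clone, how long it had been kept on TGF-β, or whether libraries with one label stem from different cultures. Each p-value therefore measures the spread among these libraries only, and that spread may be technical.

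Sugar chains are built step by step in the Golgi, where each enzyme adds 1 sugar to a chain that an earlier enzyme has left. GALNT enzymes start mucin-type chains by placing N-acetylgalactosamine on serine or threonine. GCNT enzymes branch these chains, B3GNT and B4GALT enzymes lengthen them, MGAT enzymes branch the chains on asparagine (N-glycans), and fucosyl- and sialyltransferases (FUT and ST genes) cap the ends, giving Lewis and sialylated structures. In lung and gut epithelium these enzymes decorate secreted and membrane mucins, and in carcinomas altered capping and branching of the same chains is well known.

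Reads assigned to genes numbered 26729278 and 29381872 in the A549 libraries and 28237849 and 44133836 in the TD libraries. Members took 0.263% and 0.257% of these counts in A549 and 0.371% and 0.357% in TD. Levels are in CPM, the count relative to library size after TMM scaling in edgeR, and a change is the log2 ratio of TD to A549 with its standard error (SE). A gene was called when its adjusted p was below 0.05 by edgeR's quasi-likelihood test over all tested genes. The labels held up against markers of both states: all 5 epithelial markers checked, among them the adhesion genes CDH1 and EPCAM, were called lower in TD, and the mesenchymal genes CDH2, VIM, FN1 and COL1A1 were called higher. Markers of blood cells, endothelium and fibroblasts summed to at most 1.76 CPM per list in any library. In bulk RNA, fewer cells that make a transcript and less of that transcript per cell cannot be told apart.

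Many members differed between the lines, in both directions and often within 1 family. Of the 87, 65 passed the filter on low counts and were tested. In TD 20 rose and 19 fell, where 21.6% of all tested genes were called higher and 21.4% lower. Together 39 of the 65 were called, against 43.0% of all 17785 tested genes and 50.6% of the tested protein-coding genes. Changes of at least 2-fold were called for 12 members that rose and 15 that fell, where 9.49% and 12.3% of all tested genes were called at that size. The A549 and TD libraries did not overlap for 52 of the 65, and for 74.0% of all tested genes. The median log2 change of the tested members was 0.07 and that of all tested genes was -0.04. The median size of the change, without its sign, was 0.70 for tested members and 0.50 for all tested genes. Without A549 replicate 1, 11 members were called higher and 16 lower, and without TD replicate 1, 28 and 21. With a library left out, its group has 1 library that is assumed to vary like the other group, which alone gives the spread (a coefficient of variation of 7.08% without TD replicate 1 or 2, 34.1% and 34.0% without A549 replicate 1 or 2, and 20.1% with all 4). The members called in the absence of TD replicate 1 but not with all libraries were B3GALT6, B4GALT2, B4GALT5, FUT10, MGAT1, MGAT2, ST3GAL2 and ST6GAL1 (higher) and A4GNT and GALNT12 (lower). In the absence of TD replicate 2 they were MGAT2 (higher) and B3GNT4, B3GNTL1 and ST6GALNAC4 (lower). The 22 members that were not tested had at most 8 counts in any library, and 7 of them had none at all.

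**Figure D1:**
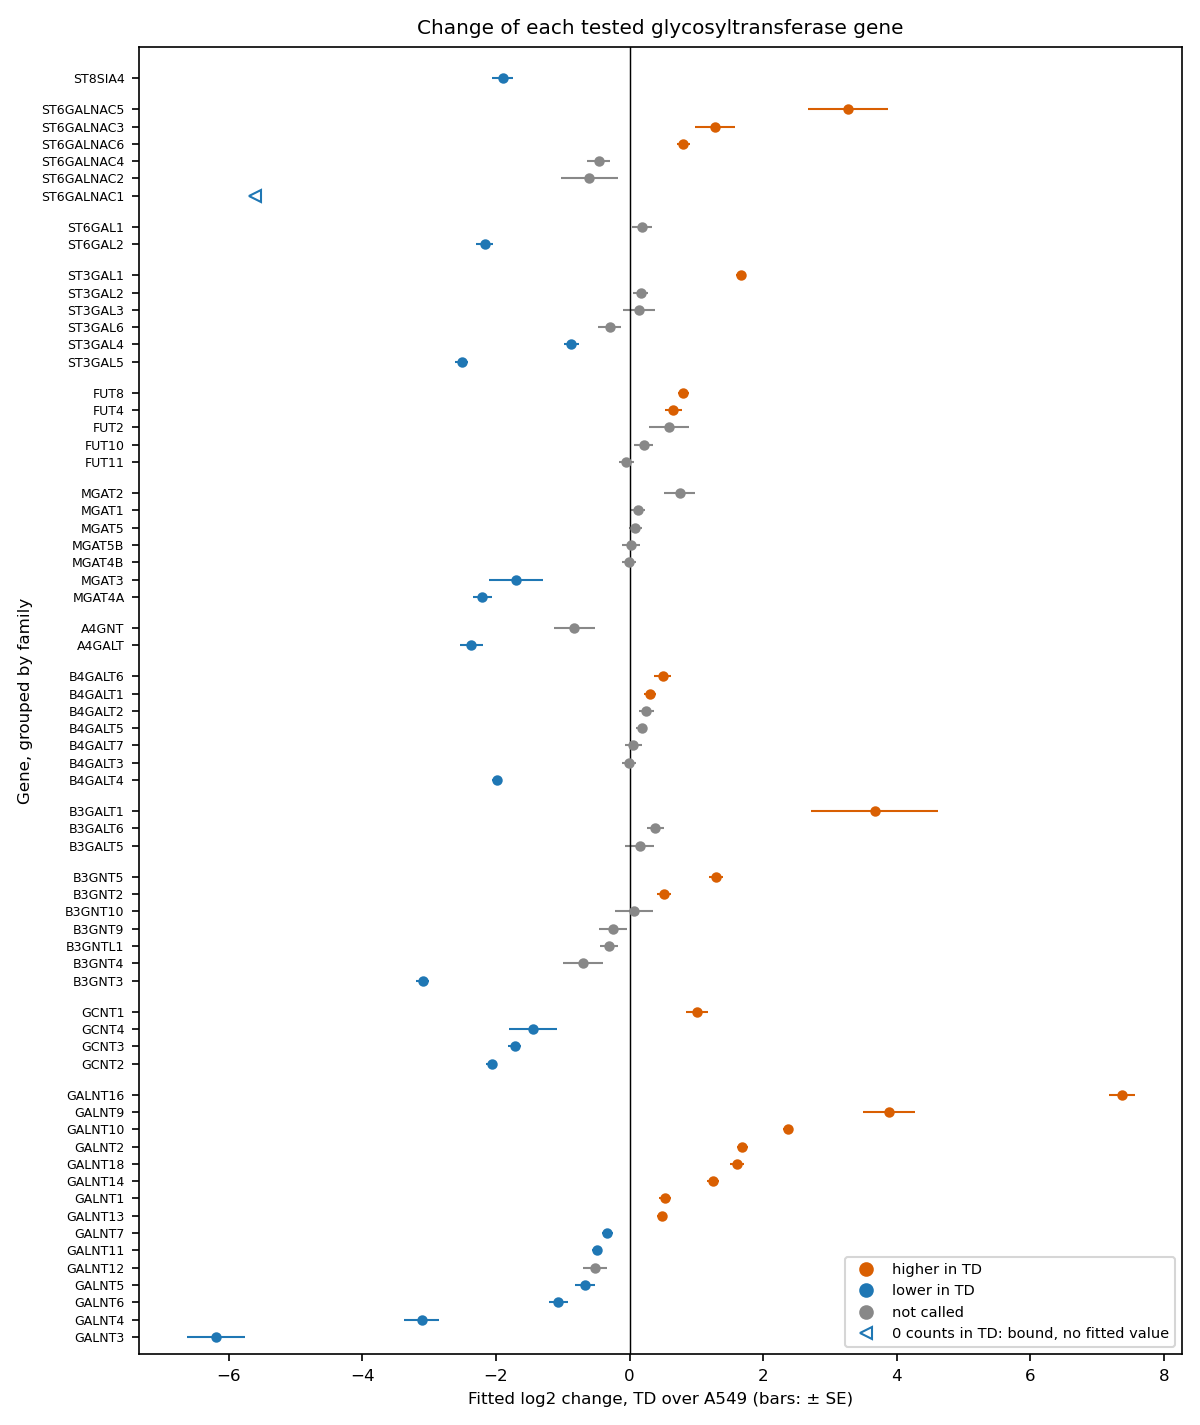
Fitted log2 change of TD over A549 (horizontal axis, with SE bars) for each of the 65 tested genes, grouped by family on the vertical axis, with genes called higher in orange, called lower in blue and not called in grey. The open arrow is ST6GALNAC1, which had 0 counts in TD and is drawn at its bound of a 48.9-fold fall; the GALNT genes spread from GALNT3 at -6.19 to GALNT16 at 7.37.

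Of 18 GALNT genes, which start mucin-type chains, 15 were tested, 8 rose, 6 fell and GALNT12 was not called. Called genes were 93.3% of the tested GALNT genes, 43.0% of all tested genes and 50.6% of tested protein-coding genes. Against a 1.5-fold change, 6 GALNT genes were called higher and 3 lower. GALNT2 and GALNT10 carried most of the increase. GALNT2, a broadly expressed enzyme that acts on many proteins, had 254 and 252 CPM in the A549 libraries and 793 and 844 CPM in the TD libraries. GALNT10 had 113 and 114 CPM in A549 and 577 and 596 CPM in TD. Both TD libraries lay far above both A549 libraries for either gene, with log2 changes of 1.69 (SE 0.09, adjusted p = 0.000197) and 2.37 (SE 0.08, adjusted p = 6.94e-05).

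GALNT16 was nearly absent from parental cells. Its counts were 4 and 7 in the A549 libraries and 892 and 1368 in the TD libraries, or 0.144 and 0.236 against 30.7 and 33.6 CPM, a 169.6-fold difference of the means (log2 change 7.37, SE 0.20, adjusted p = 4.38e-05). GALNT9, a member best known from brain, showed the same direction from a similarly low start, with 0.18 and 0.101 CPM in A549 and 2.00 and 2.21 CPM in TD (3.88, SE 0.39, adjusted p = 0.00173). GALNT18 had 18.1 and 15.9 CPM in A549 and 49.5 and 54.5 CPM in TD. GALNT14, known for glycosylating death receptors, had 35.7 and 34.6 CPM in A549 and 78.4 and 88.3 CPM in TD. The groups did not overlap for any of these genes, nor did they for 74.0% of all tested genes. GALNT18 and GALNT14 rose by 1.61 (SE 0.11, adjusted p = 0.000446) and 1.25 (SE 0.09, adjusted p = 0.000609). GALNT1 and GALNT13 rose by less, by 0.54 and 0.49. Both calls were lost without A549 replicate 1 (adjusted p = 0.051 for GALNT1 and 0.0677 for GALNT13).

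GALNT3 was the member of this family that fell furthest. This enzyme, known for protecting the hormone FGF23 from cleavage, had 57 and 81 counts in the A549 libraries and 1 count in each TD library. By counts it was 83.6-fold lower in TD (95% exact interval 22.7 to 697, counting error only; adjusted p = 0.000577). GALNT6, its close relative that is known to act on fibronectin, had 14.9 and 18.2 CPM in A549 and 7.37 and 8.41 CPM in TD (log2 change -1.06, SE 0.15, adjusted p = 0.00466). GALNT4 had 3.16 and 3.30 CPM in A549 and 0.345 and 0.393 CPM in TD (-3.11, SE 0.26, adjusted p = 0.000948). Its value is uncertain, because 93.2% of its exon bases also belong to the readthrough gene POC1B-GALNT4 in the GENCODE 29 annotation. GALNT11, GALNT5 and GALNT7 fell by 0.49, 0.66 and 0.33 on the log2 scale. In the absence of A549 replicate 2 the adjusted p was 0.0843 for GALNT7 and 0.12 for GALNT5, and in the absence of A549 replicate 1 it was 0.0746 for GALNT5. GALNT12 had 5.03 and 5.26 CPM in A549 and 3.89 and 3.27 CPM in TD (adjusted p = 0.073), and was called without TD replicate 1 (adjusted p = 0.00324). GALNT8 and GALNT15 had 0 counts in all libraries, and GALNT17 had 1 count in 1 of them. In GENCODE 29, 43.9% of the exon bases of GALNT8 also belong to KCNA6 on the same strand, so the 0 of GALNT8 is uncertain.

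**Figure D2:**
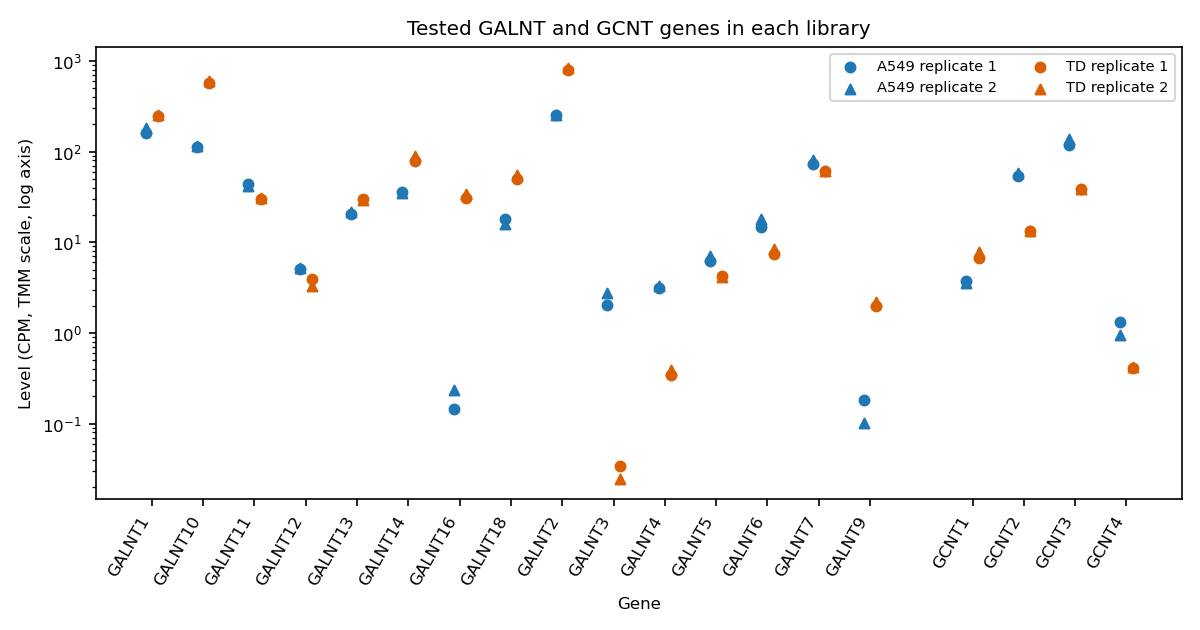
Level in CPM (vertical log axis) of each tested GALNT and GCNT gene in the 4 libraries, with A549 in blue, TD in orange, circles for replicate 1 and triangles for replicate 2. GALNT16 climbs from at most 0.236 CPM to at least 30.7 CPM, GALNT3 drops to 1 count per TD library, and GCNT3 and GCNT2 lie lower in both TD libraries.

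Per length, the pool of GALNT RNA was larger in TD and drew more on GALNT2 and GALNT10. Summed over the family, the level per kilobase of exon was 115 ± 3.34 CPM per kilobase in A549 and 266 ± 9.23 in TD (mean ± SD, n = 2). In A549, GALNT1 and GALNT2 stood level at 33.5 ± 2.76 and 32.7 ± 0.181 CPM per kilobase, a gap smaller than the spread of GALNT1. GALNT10 was at 10.8 ± 0.108 CPM per kilobase. Before division by exon length, GALNT2 was higher in A549, with a mean of 253 CPM against 172 CPM for GALNT1. In TD the order was GALNT2 at 106 ± 4.59, GALNT10 at 55.9 ± 1.30 and GALNT1 at 48.6 ± 0.536 CPM per kilobase. These 3 genes together held 66.7% and 67.3% of the pool in the A549 libraries and 79.3% and 78.8% in the TD libraries. Of the family sum, GALNT2 held 28.5% in A549 and 39.7% in TD and GALNT10 held 9.40% and 21.0%, whereas GALNT1 held 29.1% and 18.3% and GALNT7 held 9.70% and 3.33%, as the plot of the make-up of the family shows. These shares are sums of RNA levels and say nothing of enzyme activity.

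**Figure D3:**
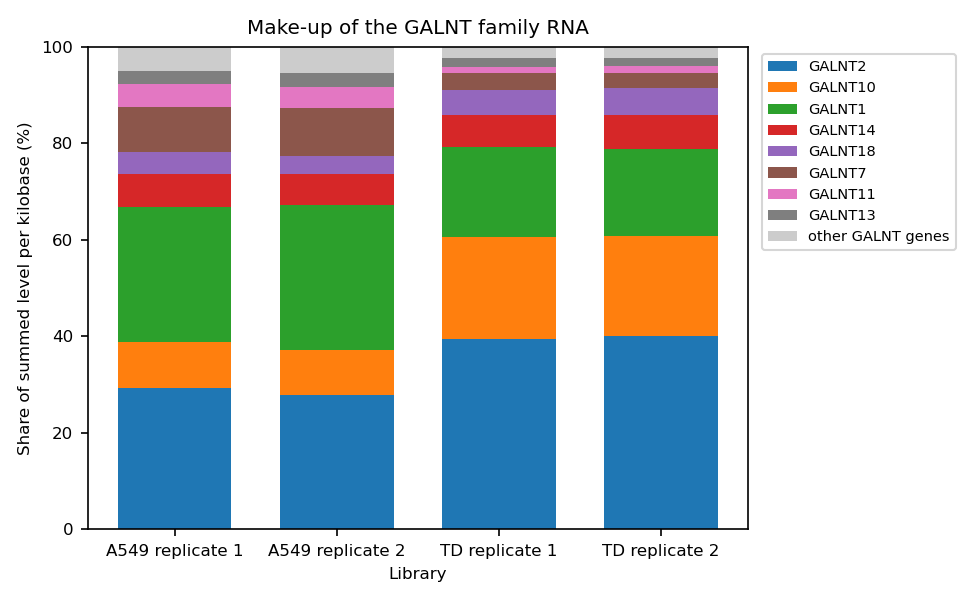
Share of the summed GALNT level per kilobase (vertical axis, %) taken by each gene in each of the 4 libraries (stacked bars). GALNT2 and GALNT10 widen in both TD libraries, and GALNT1, GALNT7 and GALNT11 narrow.

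Of the 4 tested GCNT branching genes, 3 fell and 1 rose, where 21.4% of all tested genes were called lower and 21.6% higher. GCNT3, the mucin-type branching enzyme that makes core 2 and core 4 chains, had 117 and 137 CPM in A549 and 38.5 and 38.6 CPM in TD (log2 change -1.72, SE 0.10, adjusted p = 0.000324). GCNT2, which branches poly-N-acetyllactosamine into the blood group I structure, had 53.1 and 58.2 CPM in A549 and 13.3 and 13.4 CPM in TD (-2.06, SE 0.09, adjusted p = 0.000117). GCNT4 fell from 1.33 and 0.944 CPM to 0.414 and 0.418 CPM, a call lost in DESeq2 (adjusted p = 0.0851) and without A549 replicate 1 (0.2) or replicate 2 (0.0943). GCNT1, the widely expressed core 2 enzyme, went the other way, from 3.70 and 3.51 CPM to 6.65 and 7.80 CPM (1.00, SE 0.16, adjusted p = 0.00806). Without A549 replicate 1 or 2 its adjusted p was 0.0535 and 0.0568. The family sum was 26.4 ± 2.50 CPM per kilobase in A549 and 8.37 ± 0.0889 in TD, and GCNT3 made up 74.2% of it in A549 and 71.1% in TD. GCNT7 had at most 7 counts in any library and was not tested.

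ST3GAL1 puts sialic acid on core 1 chains and so competes with core 2 branching for the same acceptor. It had 61.5 CPM in both A549 libraries and 193 and 197 CPM in the TD libraries, a rise of 1.66 (SE 0.07, adjusted p = 0.000123). Per kilobase, ST3GAL1 stood at 0.384 and 0.329 times the level of GCNT3 in the A549 libraries and at 3.67 and 3.73 times in the TD libraries, so the order of the 2 genes was inverted in both. Against GCNT1 the ratio was 17.4 and 18.3 in A549 and 30.3 and 26.4 in TD. ST6GALNAC1, the enzyme that makes the sialyl-Tn antigen by capping the first sugar, had 64 and 57 counts in the A549 libraries and 0 in both TD libraries. That is at least 48.9-fold lower in TD, with 3 counts over the group set in place of 0 (adjusted p = 0.00154). C1GALT1, which makes core 1, and its chaperone C1GALT1C1 are not members and are given here because they stand between these steps. C1GALT1 fell from 54.5 and 60.7 CPM to 39.3 and 41.9 CPM (log2 change -0.50, adjusted p = 0.0107), and C1GALT1C1 fell by 0.34 on the log2 scale. Without A549 replicate 2 the change of C1GALT1C1 was -0.32 and its call was lost (adjusted p = 0.0761). B3GNT6, the core 3 enzyme of gut mucins, had 0 counts in all libraries.

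Promoter stretches of 2 GCNT genes are shown because GCNT1 and GCNT2 were called in opposite directions and both hold an E-box in 1 of their 4 listed promoters, the hexamer CAGGTG or its reverse complement CACCTG, which SNAIL and ZEB repressors are known to bind. RefSeq windows of 250 bases before each listed gene start (build GRCh38.p14) were found for 62 of the 87 members, with 1 to 6 starts per gene. At least 1 match on either strand was present in 22 of 106 member windows (20.8%) and in 6143 of all 35116 windows (17.5%). It was present in 6 of 31 windows of members called higher and 4 of 26 windows of members called lower. The part of each matching window that lies outside annotated exons is printed 5′ to 3′ on the gene's strand, with the E-box in capitals, for these 2 genes and for GALNT9, the third member with at least a 2-fold change that had such a stretch: GCNT1 (chr9:76458932-76459151, plus strand), GCNT2 (chr6:10521101-10521282, plus strand) and GALNT9 (chr12:132206160-132206278, minus strand).
GCNT1: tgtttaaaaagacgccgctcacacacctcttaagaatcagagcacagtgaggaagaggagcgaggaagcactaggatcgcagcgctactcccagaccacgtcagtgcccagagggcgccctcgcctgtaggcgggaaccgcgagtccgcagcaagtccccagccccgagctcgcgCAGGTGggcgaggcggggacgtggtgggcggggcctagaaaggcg
GCNT2: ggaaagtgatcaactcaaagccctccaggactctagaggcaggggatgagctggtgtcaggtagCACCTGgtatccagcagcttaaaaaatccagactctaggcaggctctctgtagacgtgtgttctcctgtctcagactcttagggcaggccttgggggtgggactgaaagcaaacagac
GALNT9: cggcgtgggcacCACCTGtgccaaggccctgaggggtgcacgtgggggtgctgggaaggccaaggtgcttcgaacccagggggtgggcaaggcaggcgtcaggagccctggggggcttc
The E-box ends 69 bases before the listed start of GCNT1 and 180 bases before that of GCNT2. GALNT3, GALNT14 and ST3GAL5 also had a matching window, but there the E-box lay in annotated exons and the windows are not shown. A match is a description of these letters, and no binding was measured.

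Among the genes that lengthen chains, B3GNT3 and B4GALT4 fell and B3GNT5 rose. B3GNT3, which extends core 1 chains and takes part in L-selectin ligands, had 23.9 and 23.3 CPM in A549 and 2.76 and 2.75 CPM in TD (log2 change -3.10, SE 0.10, adjusted p = 6.32e-05). B3GNT5, which starts lacto-series glycolipids, had 8.87 and 9.91 CPM in A549 and 22.1 and 24.1 CPM in TD (1.30, SE 0.11, adjusted p = 0.000935). B3GNT2, the main poly-N-acetyllactosamine enzyme, had 42.4 and 50.0 CPM in A549 and 64.4 and 68.0 CPM in TD (0.52, SE 0.10, adjusted p = 0.0153), but its adjusted p was 0.0575 without A549 replicate 1. Per kilobase, B3GNT2 was at 1.43 and 1.73 times the level of B3GNT3 in the A549 libraries and at 18.8 and 19.8 times in the TD libraries. The family sum was 31.9 ± 1.61 CPM per kilobase in A549 and 30.8 ± 1.59 in TD, a gap smaller than the spread in either line. B3GNT10, B3GNT4, B3GNT9 and B3GNTL1 were not called, with means of at most 10.9 CPM, and B3GNT7 and B3GNT8 had at most 8 counts in any library.

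B4GALT4, a galactosyltransferase that acts on sulfated N-acetylglucosamine, had 144 and 146 CPM in A549 and 36.8 and 36.1 CPM in TD (log2 change -1.99, SE 0.07, adjusted p = 7.75e-05). B4GALT1, the most abundant member of the B4GALT family per length, had 390.1 and 376 CPM in A549 and 451 and 499 CPM in TD (0.31, SE 0.09, adjusted p = 0.0471). This call was lost without A549 replicate 1 (adjusted p = 0.124), without A549 replicate 2 (0.152) and without TD replicate 2 (0.0618). B4GALT6, which with B4GALT5 makes lactosylceramide, rose by 0.50, with an adjusted p of 0.128 once A549 replicate 1 was left out. For B4GALT5 the means were 157 CPM in A549 and 178 CPM in TD (adjusted p = 0.149, not called). B4GALT2, B4GALT3 and B4GALT7 were not called either, the last of these a proteoglycan linker enzyme. The family sum was 159.5 ± 2.42 CPM per kilobase in A549 and 171 ± 13.1 in TD, a difference smaller than the spread in TD. In the B3GALT family, B3GALT1 had 2 counts over both A549 libraries and 34 in TD, a 14.0-fold rise by counts (95% exact interval 3.60 to 121). Its call was lost without A549 replicate 1 (adjusted p = 0.13) or replicate 2 (0.0593). B3GALT6, of the proteoglycan linker, and B3GALT5 were not called (adjusted p = 0.0589 and 0.618), B3GALT4 had 0 counts in all libraries, and B3GALT2 had at most 2.

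Genes that commit glycolipids to different series were called in different directions. ST3GAL5, which makes the ganglioside GM3 from lactosylceramide, had 37.4 and 41.1 CPM in A549 and 6.75 and 6.98 CPM in TD (log2 change -2.51, SE 0.09, adjusted p = 8.70e-05). A4GALT, which makes the globoside Gb3 from the same lipid, had 13.0 and 12.5 CPM in A549 and 2.14 and 2.78 CPM in TD (-2.37, SE 0.18, adjusted p = 0.000664). Both thus fell while B3GNT5, the lacto-series enzyme on that lipid, rose. A4GNT, which caps gastric mucin chains, stood at 2.48 and 2.16 CPM in A549 and at 1.59 and 1.03 CPM in TD, which did not pass the test (adjusted p = 0.0889; 0.00018 without TD replicate 1). UGCG, which makes the glucosylceramide under all these lipids and is no member, rose by 0.59 on the log2 scale. The change was 0.59 and 0.52 without A549 replicate 1 or 2, with the call lost (adjusted p = 0.062 and 0.0736).

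**Figure D4:**
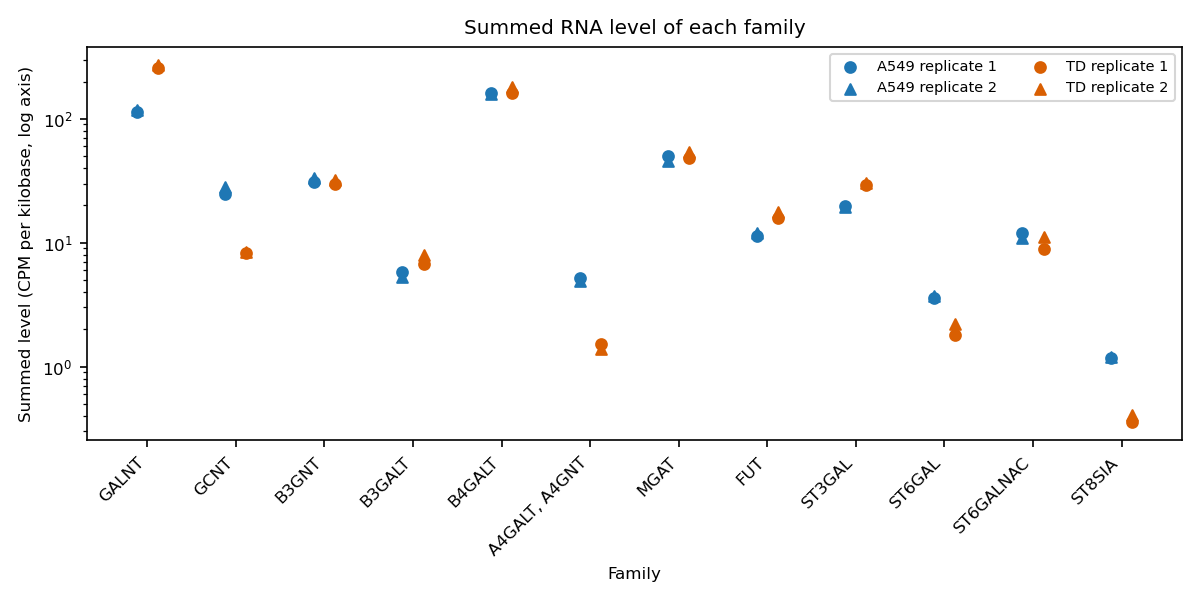
Summed level of each family per kilobase of exon (vertical log axis) in the 4 libraries, with A549 in blue, TD in orange, circles for replicate 1 and triangles for replicate 2. The GALNT, B3GALT, FUT and ST3GAL sums lie higher in both TD libraries, the GCNT, ST6GAL and ST8SIA sums and that of A4GALT with A4GNT lie lower, and the B3GNT, MGAT and ST6GALNAC libraries overlap between the lines, while the B4GALT sum is higher in both TD libraries by little in replicate 1 (161.2 in A549 and 161.6 in TD).

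Of 9 MGAT genes, which branch N-glycans, 7 were tested, 0 rose and 2 fell. Called genes were 28.6% of the tested MGAT genes, 43.0% of all tested genes and 50.6% of tested protein-coding genes. With 7 genes tested, the MGAT share is coarse. The family sum was 48.1 ± 3.48 CPM per kilobase in A549 and 51.4 ± 3.98 in TD. MGAT1, which opens the way to complex N-glycans, had means of 110 and 121 CPM (log2 change 0.13, SE 0.11, adjusted p = 0.377). MGAT5, which makes the branch often linked to invasion, had 64.1 and 74.5 CPM in A549 and 74.1 and 73.2 CPM in TD (0.09, SE 0.10, adjusted p = 0.519). MGAT4B, at 122 and 106.5 CPM in A549 and 107 and 120.5 CPM in TD, and MGAT5B were not called either. MGAT4A, the paralog of MGAT4B, had 9.95 and 10.4 CPM in A549 and 2.21 CPM in both TD libraries (-2.20, SE 0.14, adjusted p = 0.000428). Because MGAT4B was 21.6 and 17.9 times as high per kilobase as MGAT4A in A549, MGAT4A made up only 2.20% of the family sum there. MGAT3, which adds the bisecting sugar that blocks branching, had 24 and 32 counts in A549 and 7 and 14 in TD (-1.70, SE 0.40, adjusted p = 0.0247). That call was lost in DESeq2 (adjusted p = 0.0659) and without A549 replicate 1 (0.113) or replicate 2 (0.177). MGAT2 had 13.5 and 8.73 CPM in A549 and 17.3 and 20.1 CPM in TD (0.75, SE 0.23, adjusted p = 0.0522). MGAT2 passed the threshold in DESeq2 (adjusted p = 0.0012), limma-voom (0.0338) and edgeR with DESeq2 size factors (0.0401). In edgeR it also passed with no filter (0.00201), 5 CPM in 2 libraries (0.0413) and protein-coding genes alone (0.0028). It did not pass with upper quartile scaling (0.055), with the replicate number as a block (0.113) or against a 1.5-fold change (0.354). The change was 1.06 without A549 replicate 1 and 0.44 without A549 replicate 2. Of its exon bases, 91.9% overlap an antisense gene. Reads that HTSeq found ambiguous between genes, 2.34% to 2.56% of all reads, were given to no gene. The strand setting of the counting is not given, so the value of MGAT2 is uncertain and its counts may be too low. MGAT4C had at most 2 counts in any library and MGAT4D had 0.

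The core fucosyltransferase FUT8 and the Lewis x enzyme FUT4 rose, and the other Lewis enzymes had counts at or near 0. FUT8, which adds core fucose to N-glycans, had 36.7 and 38.9 CPM in A549 and 63.1 and 69.0 CPM in TD (log2 change 0.81, SE 0.08, adjusted p = 0.002). It held 48.4% of the FUT sum per kilobase in A549 and 58.7% in TD. FUT4, which makes Lewis x, had 6.29 and 6.94 CPM in A549 and 10.1 and 10.7 CPM in TD (0.66, SE 0.12, adjusted p = 0.0126), and its adjusted p was 0.0767 without A549 replicate 1. FUT3, the Lewis blood group enzyme, had 2 and 5 counts in A549 and 0 and 1 in TD and was not tested. By counts it was 8.48-fold lower in TD, with a wide 95% exact interval of 1.09 to 382 that covers counting error only. Its near-identical neighbours FUT5 and FUT6 had 0 and at most 4 counts. Reads without a unique alignment, 8.08% to 9.22% of all, were given to no gene. Reads that fit more than 1 of these 3 genes would be among them, so the counts of FUT3, FUT5 and FUT6 may be too low. In GENCODE 29, 82.5% of the exon bases of FUT5 also belong to another gene on the same strand, so the 0 of FUT5 is uncertain. FUT7, of selectin ligands, had at most 2 counts, FUT9 had 0, and FUT1, which makes the H antigen, had at most 6. FUT2, the secretor gene, was not called at 0.731 and 1.10 CPM, nor were FUT10 and FUT11, whose means lay between 11.4 and 14.2 CPM in both lines. At these counts no Lewis gene other than FUT4 entered the test.

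Among sialyltransferases that cap galactose, 1 rose and 3 fell, where 21.6% of all tested genes were called higher and 21.4% lower. The order of the genes per kilobase differed between the lines. ST3GAL1 and ST3GAL4 stood near each other in A549 at 6.95 and 6.55 CPM per kilobase, but not in CPM (means of 61.5 and 29.2). In the TD libraries ST3GAL1 was 6.62 and 5.77 times as high per kilobase as ST3GAL4. ST3GAL4, which takes part in sialyl Lewis x, had 30.1 and 28.3 CPM in A549 and 14.7 and 17.2 CPM in TD (log2 change -0.87, SE 0.11, adjusted p = 0.00345). ST3GAL2, ST3GAL3 and ST3GAL6 were not called. ST6GAL1, the main sialyltransferase of N-glycans in many epithelia, had 11.1 and 12.5 CPM in A549 and 12.0 and 14.9 CPM in TD, with overlapping groups (0.19, SE 0.15, adjusted p = 0.374). ST6GAL2, its paralog, had 18.3 and 18.0 CPM in A549 and 3.72 and 4.33 CPM in TD (-2.17, SE 0.12, adjusted p = 0.000295). Per kilobase, ST6GAL1 was at 0.514 and 0.585 times the level of ST6GAL2 in A549 and at 2.71 and 2.90 times in TD.

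In the ST6GALNAC and ST8SIA families, 3 other genes rose and ST8SIA4 fell, where 21.6% of all tested genes were called higher and 21.4% lower. ST6GALNAC6, which acts on glycolipids, had 9.88 and 9.54 CPM in A549 and 16.2 and 17.7 CPM in TD (log2 change 0.80, SE 0.10, adjusted p = 0.00335). In the GENCODE 29 annotation 47.0% of its exon bases also belong to another gene on the same strand. ST6GALNAC3 had 0.539 CPM in both A549 libraries and 1.24 and 1.38 CPM in TD, and ST6GALNAC5 had 1 and 3 counts in A549 and 20 and 29 in TD. Neither call held without A549 replicate 1 (adjusted p = 0.138 for ST6GALNAC3 and 0.0899 for ST6GALNAC5) or replicate 2 (0.133 and 0.0568), nor did that of ST6GALNAC3 in DESeq2 (0.0825). ST6GALNAC4 was not called (24.3 and 21.7 CPM in A549, 14.0 and 19.3 CPM in TD, adjusted p = 0.0933). It was called lower in DESeq2 (adjusted p = 0.0258). In edgeR it was called lower with no filter (0.0101), 5 CPM in 2 libraries (0.0345) and protein-coding genes alone (0.00668). It was not called in limma-voom (0.0823) or in edgeR with DESeq2 size factors (0.0902), upper quartiles (0.0553) or the replicate block (0.161). Its log2 change was -0.24 without TD replicate 1 and -0.71 without TD replicate 2. ST6GALNAC2 was not called. ST8SIA4, which makes polysialic acid, had 8.87 and 8.93 CPM in A549 and 2.27 and 2.48 CPM in TD (-1.90, SE 0.15, adjusted p = 0.000821). The other ST8SIA genes, among them the GD3 synthase ST8SIA1, had at most 7 counts in any library and were not tested.

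**Figure D5:**
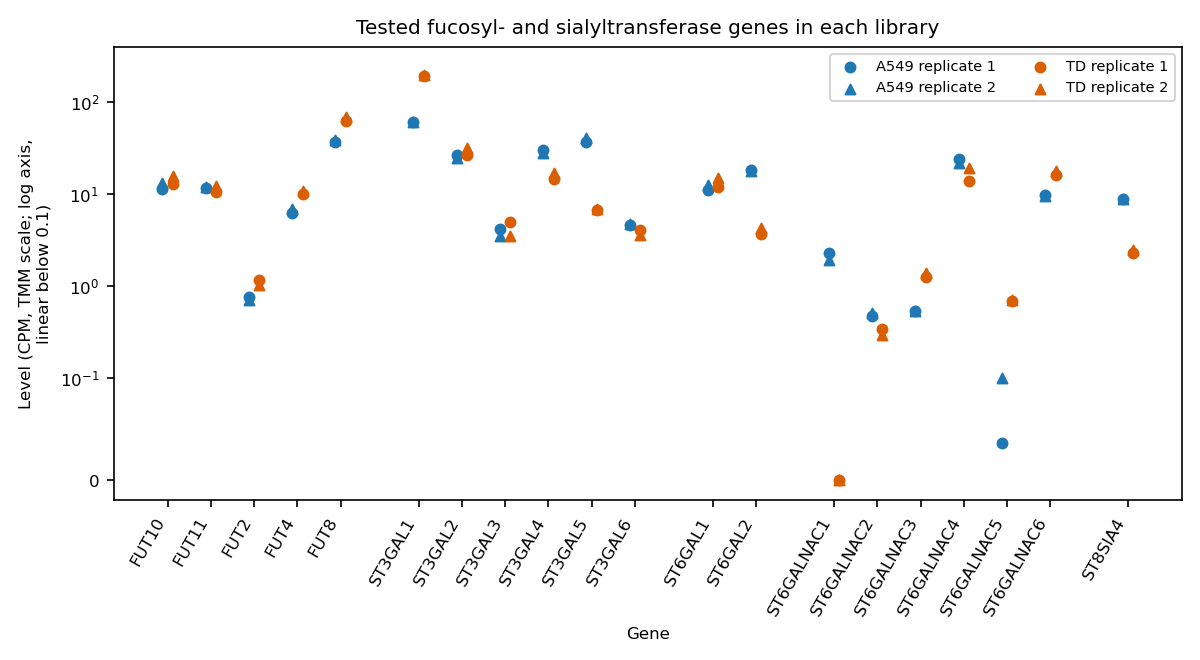
Level in CPM (vertical log axis, linear below 0.1) of each tested fucosyl- and sialyltransferase gene in the 4 libraries, with A549 in blue, TD in orange, circles for replicate 1 and triangles for replicate 2. ST3GAL1 and FUT8 lie higher in both TD libraries, ST3GAL5, ST6GAL2 and ST8SIA4 lie lower, and ST6GALNAC1 is at 0 in TD.

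Genes that supply the sugar donors, or remove sialic acid or fucose, were called in both directions in most lists. Of 14 tested genes that make or carry UDP-linked hexosamine and galactose, 3 rose and 4 fell. GNPNAT1, an enzyme of the hexosamine pathway, rose from 90.8 and 100.4 CPM to 271 and 311 CPM (log2 change 1.61, adjusted p = 0.000484), and UAP1L1 rose by 1.35. UGP2, which makes UDP-glucose, fell by 0.71 and GFPT1, the entry enzyme of the hexosamine pathway, by 0.61 on the log2 scale. Of 7 genes of fucose supply and removal, 4 fell and 0 rose. Those that fell included FUCA1 (-0.65) and FUCA2 (-0.74), which remove fucose. The FUCA1 call was lost with the replicate number as a block (adjusted p = 0.0515 by edgeR's quasi-likelihood test). Without A549 replicate 1 or 2 the change of FUCA1 was -0.73 and -0.64. GMDS, the first enzyme from GDP-mannose to GDP-fucose, fell from 23.0 and 26.8 CPM to 6.17 and 7.55 CPM (-1.85, adjusted p = 0.000813) and FCSK of the salvage route fell by 1.15 on the log2 scale. Of 9 tested genes of sialic acid supply and removal, 1 rose, the acetyltransferase CASD1 (0.53), and 1 fell, GNE (-0.68). GNE catalyses the first steps of sialic acid synthesis. Without TD replicate 1, 5 hexosamine and galactose genes, 2 fucose genes and 3 sialic acid genes rose, and without TD replicate 2, 4 sialic acid genes fell. Of 14 tested genes of N-glycan transfer and trimming, 4 rose and 2 fell. The mannosidases MAN1A1 (1.37) and MAN2A1 (0.90) rose most, and MOGS (-0.82) and MAN2A2 (-0.47) fell most. Called genes made up 50% of the tested hexosamine and galactose genes, 57.1% of the fucose, 22.2% of the sialic acid and 42.9% of the N-glycan genes. That share was 43.0% among all tested genes and 50.6% among tested protein-coding genes. The call of MAN2A2 was lost without A549 replicate 1 (adjusted p = 0.0539).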

How the data were processed

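RNA was measured in 4 libraries, 2 of A549 and 2 of TD. The authors deposited raw gene counts. The submitters' processing notes name FastQC 0.11.8, STAR 2.7.1a, HTSeq 0.11.2 and build hg19 (GRCh37); which annotation release, strand setting and filters were used is not given in the sources used here. Reads that HTSeq gave to no gene stayed out of library sizes and tests (those outside genes were 6.12% to 7.79% of all). GENCODE 29 (GRCh38) paired 52338 of 57820 gene IDs with a symbol and gave exon lengths and overlaps. It may differ from the annotation behind the counts. Lengths are of all annotated exons of a gene merged, so ranks between genes per kilobase depend on them. The SDs hold no error of length.

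TD and A549 were compared by edgeR 4.0.16 in R 4.3.3 (quasi-likelihood test, TMM scaling, default filter, Benjamini-Hochberg adjustment), checked on simulated counts. The SE is the fitted log2 change divided by the square root of F. Alternatives used DESeq2 1.42.0, limma 3.58.1 and other scalings, filters and libraries. Intervals and the limit of 3 counts, set over the 2 libraries of a group, cover counting error only. For scale, 3 counts in 1 library are 0.068 to 0.112 CPM before TMM scaling. Members and gene lists were chosen with earlier results of these data known. Members are described in full where called with at least a 2-fold change and 1 CPM in the higher group, together with 10 branch-point genes whatever their result. In each list, the 2 called genes with the largest change in each direction are named; other named genes were chosen after their values were seen.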

Additional observations from a re-analysis of the deposited data

How the results depend on the processing

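Of the 39 called members, 23 kept their call under all of the 13 alternatives that tested them, and none changed direction. The range over single libraries left out was 11 to 28 for members higher, 2114 to 5329 for all genes higher and 2236 to 6140 for all genes lower; by family it was 1 to 2 for A4 lower, 0 to 2 for B3GALT higher, 1 to 2 for B3GNT higher, 1 to 3 for B3GNT lower, 0 to 4 for B4GALT higher, 1 to 3 for FUT higher, 0 to 1 for GCNT higher, 0 to 2 for MGAT higher, 1 to 2 for MGAT lower, 1 to 2 for ST3GAL higher, 0 to 1 for ST6GAL higher, 1 to 3 for ST6GALNAC higher and 1 to 2 for ST6GALNAC lower. Against a 1.5-fold change (edgeR's glmTreat), 1741 genes were higher and 2109 lower, with 11 members higher, and by family 0 B3GALT, 1 B3GNT, 0 B4GALT, 1 FUT and 1 ST6GALNAC gene higher and 3 GALNT and 1 MGAT gene lower. By DESeq2 there were 2 B3GALT, 4 B4GALT and 1 MGAT gene higher, and 1 MGAT and 2 ST6GALNAC genes lower. With protein-coding genes alone there were 2 B3GALT and 1 MGAT gene higher, and 2 A4, 3 B3GNT and 2 ST6GALNAC genes lower. With no filter there were 2 B3GALT and 1 MGAT gene higher and 2 ST6GALNAC genes lower, and with 5 CPM in 2 libraries 1 MGAT and 1 ST6GALNAC gene higher and 1 MGAT gene lower. DESeq2 size factors gave 2 B3GALT and 1 MGAT gene higher, upper quartiles 2 B3GALT genes higher, and limma-voom 2 A4 genes lower and 1 MGAT gene higher. With the replicate number as a block, 16 members were higher and 16 lower, with 0 B3GALT, 1 B4GALT and 1 ST6GALNAC gene higher and 1 MGAT gene lower. Replicates that share a number did not deviate together (correlation -0.0787 over 17785 genes), so the numbers were not taken as pairs. Given here are mainly counts that differed from the main result by more than 1.5-fold, or where 1 of the 2 was 0. Counts not given also shifted, by less. Members called lower, 19 in the main result, were 14 against a 1.5-fold change and 24 with protein-coding genes alone. The causes of these shifts were not tested. Depth limits the 22 members that were not tested, whose absence from the calls is not evidence that they did not change.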

Other observations

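Other glycan genes of the fixed lists that are no members also differed between the lines. For comparison, 21.6% of all tested genes were called higher and 21.4% lower. Of 3 tested sulfotransferases of selectin ligands and glycolipids, 2 rose and 1 fell. CHST2, which sulfates N-acetylglucosamine in L-selectin ligands, had 2 counts in each A549 library and 122 and 234 in the TD libraries (log2 change 6.08, SE 0.35, adjusted p = 0.000295 by edgeR's quasi-likelihood test). CHST1, which sulfates galactose, was also at 2 counts in each A549 library and reached 0.999 and 0.934 CPM in TD. GAL3ST1, which makes the glycolipid sulfatide, fell from 41.2 and 34.8 CPM to 2.31 and 3.91 CPM (-3.59, SE 0.27, adjusted p = 0.000648). Of 7 tested galectins and glycan-binding receptors, 1 rose and 6 fell. LGALS1, galectin-1, rose from 304 and 324 CPM to 790.4 and 863 CPM (1.40, adjusted p = 0.000496), while LGALS9 fell by 4.34 and LGALS2 by 4.31 on the log2 scale. These named calls held without any single library, while the number of galectins and receptors that fell was 4 without A549 replicate 2 and the number of sulfotransferases that rose was 3 without TD replicate 1.

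Among transferases that act beside the members, 5 of 10 tested rose and 4 fell, where 43.0% of all tested genes were called. B4GALNT4 rose from 5.78 and 3.54 CPM to 12.7 and 14.1 CPM, whereas its close paralog B4GALNT3 fell from 3.74 and 3.24 CPM to 0.758 and 0.566 CPM. B4GALNT1, the GM2 and GD2 synthase downstream of ST3GAL5 and ST8SIA1, fell by 0.93 on the log2 scale, and B3GLCT, which extends O-fucose on thrombospondin repeats, rose by 1.04. The count that rose was 3 without A549 replicate 1 or replicate 2.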
